A study of Mus musculus with 8 samples.

Results

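The C/EBP family (CCAAT/enhancer-binding proteins) was followed through RNA sequencing of mouse bone marrow-derived macrophages. Its members were taken by gene symbol, Cebpa, Cebpb, Cebpd, Cebpe and Cebpg, which are 5 of the 23354 symbols in the deposited tables. All 5 were listed in each of the 8 libraries, and 4 of them, all but Cebpe, reached 1 FPKM (fragment numbers corrected for gene length and library size) in at least 2 libraries, the condition for a test. Marrow came from the femur and tibia of male mice aged 8 weeks on a C57BL/6J background. The cells were grown for 7 days with L929-conditioned medium, a source of macrophage growth factor. Both genotypes carried floxed alleles of Ern1, which encodes the endoplasmic reticulum stress sensor IRE1α. The Ern1f/f cells carried these alleles alone, and the Ern1f/fLyz2-Cre cells also carried Cre recombinase expressed from Lyz2, a gene active in myeloid cells. Cells of each genotype served as untreated controls or received 20 ng/ml IL-4, which switches macrophages to alternative activation, over 24 hours. This gave 4 groups of 2 libraries, numbered replicate 1 and replicate 2. The labels do not say whether the 2 libraries of a group came from separate mice or cultures, so p-values measure only the spread between these libraries, which may be technical.

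C/EBP proteins are basic leucine zipper (bZIP) factors: a basic region contacts DNA and a zipper joins 2 proteins, of the same or different family members, into the dimer that binds. C/EBPα is needed for myeloid commitment and for fat cell differentiation. C/EBPβ and C/EBPδ are induced by inflammatory signals and act on cytokine and acute phase genes, and C/EBPβ also takes part in alternative activation, where CREB drives its gene and C/EBPβ acts on Arg1. C/EBPε serves the late granulocyte, and C/EBPγ, which lacks an activation domain of its own, acts through its dimer partners, among them ATF4. In fat cell differentiation XBP1, the factor made downstream of IRE1α, is known to act on Cebpa.

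How alike the genes are matters for values counted from short reads. The coding stretch where 4 of them are most alike lies in the part that encodes the DNA-contacting basic region. This stretch was picked as the in-frame window of Cebpa with the highest summed identity to windows of Cebpb, Cebpe and Cebpg. Its identities are therefore the highest found and do not describe the whole coding sequences. The stretches below are 60 bases each, lie in coding exons, were read from the GRCm38 (mm10) sequence with GENCODE M21 gene models, and are written 5′ to 3′ along the gene. Capitals mark the 35 bases that are identical in all 4.
Cebpa, chr7:35120271-35120330, plus strand: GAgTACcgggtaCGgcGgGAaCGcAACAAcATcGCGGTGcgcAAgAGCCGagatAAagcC
Cebpb, chr2:167689691-167689750, plus strand: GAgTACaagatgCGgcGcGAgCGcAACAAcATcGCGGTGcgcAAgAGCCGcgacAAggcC
Cebpe, chr14:54710710-54710769, minus strand: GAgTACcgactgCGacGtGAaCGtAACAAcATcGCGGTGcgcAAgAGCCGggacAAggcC
Cebpg, chr7:35050588-35050647, minus strand: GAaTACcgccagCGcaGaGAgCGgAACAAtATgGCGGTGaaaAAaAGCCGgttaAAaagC
Cebpa, Cebpb and Cebpe shared 51 of 60 bases in each pair (85%), and Cebpg stood farthest from the others, at 61.7% to 66.7%. Over the whole coding sequences the longest run of identical bases was 29 between Cebpa and Cebpb, and 26 between Cebpe and each of Cebpa and Cebpb. The pairs with Cebpg shared runs of 9 to 10 bases. The read length is not given in the sources used here, and how the authors' counting treated reads that fit more than 1 gene was not tested.

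On mm10 the deposited tables place Cebpa at chr7:35119293-35121931 (plus strand), Cebpb at chr2:167688915-167690418 (plus), Cebpd at chr16:15887286-15889545 (plus), Cebpe at chr14:54710363-54712174 (minus) and Cebpg at chr7:35046422-35056566 (minus). Cebpa and Cebpg are neighbours on chromosome 7 and point away from each other, with 62.7 kb between them. Cebpa, Cebpb and Cebpd each have a single exon. The coding sequences of Cebpa and Cebpb hold 71.9% and 73.4% G and C, against 62.4% for Cebpe and 50.7% for Cebpg. Because the labels do not say whether the libraries kept strand, reads of overlapping genes cannot be told apart. Cebpd overlaps 2310008H04Rik by 319 of its 2260 bases in the tables, a gene that read 3.83 to 5.11 FPKM. The GENCODE gene models give Cebpd a larger overlap, 1808 bases with Spidr on the opposite strand, a symbol absent from the tables. In GENCODE, Tmem189 overlaps Cebpb on the opposite strand by 908 bases, although the loci in the tables do not meet. Tmem189 read 83.5 to 114 FPKM, above Cebpb in every library, and was lower with IL-4 in each pair. What its reads add to the Cebpb values was not tested.

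Promoter sequence was at hand for Cebpa, Cebpb and Cebpg (RefSeq, GRCm38.p6). Shown are the 250 bases before each start, because Cebpa and Cebpg differed together between the replicate numbers and Cebpb belongs to the CREB route. Each window was searched on both strands for CCAAT, for TGACGTCA (the full cyclic AMP response element) and its core TGACG, for TTGCNNAA (C/EBP), for TTCNNNGAA (STAT) and its STAT6 form with 4 bases between TTC and GAA, for CACGTG (E-box) and for GGGCGG (GC box). Capitals mark matches other than the GC box.
Cebpa, chr7:35119043-35119292, plus strand: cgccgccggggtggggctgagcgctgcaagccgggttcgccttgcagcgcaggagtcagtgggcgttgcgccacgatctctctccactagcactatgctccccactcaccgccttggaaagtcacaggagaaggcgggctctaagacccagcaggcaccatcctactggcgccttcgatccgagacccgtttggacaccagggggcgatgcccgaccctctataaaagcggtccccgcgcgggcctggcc
Cebpb, chr2:167688665-167688914, plus strand: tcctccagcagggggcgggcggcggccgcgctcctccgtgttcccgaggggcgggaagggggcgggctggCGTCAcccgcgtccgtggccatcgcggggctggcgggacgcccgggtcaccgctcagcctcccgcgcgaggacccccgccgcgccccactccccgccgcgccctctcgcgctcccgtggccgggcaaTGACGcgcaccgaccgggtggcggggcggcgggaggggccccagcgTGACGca
Cebpg, chr7:35056567-35056816, minus strand: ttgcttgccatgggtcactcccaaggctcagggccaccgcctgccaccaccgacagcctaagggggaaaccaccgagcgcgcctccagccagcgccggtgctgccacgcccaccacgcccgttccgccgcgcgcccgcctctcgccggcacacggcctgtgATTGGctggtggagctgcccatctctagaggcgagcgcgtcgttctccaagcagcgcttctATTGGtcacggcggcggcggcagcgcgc
The Cebpb window held 3 matches to TGACG, at 180 to 176 (minus strand), 53 to 49 and 7 to 3 bases before the start, and 5 to GGGCGG, of which the first and second overlap. TGACG occurs in 17.8% of 32851 RefSeq windows of this length and GGGCGG in 32.7%. The Cebpg window held 2 matches to CCAAT, both on the minus strand (ATTGG) at 89 to 85 and 28 to 24 bases before the start, a motif found in 33.8% of windows. The Cebpa window held none of the 8 motifs. The full element TGACGTCA occurs in 1.55% of windows, TTGCNNAA in 9.56%, TTCNNNGAA in 7.02%, the STAT6 form in 5.85% and CACGTG in 6.02%. No match was found for these in any of the 3 windows, which says only that the letters are not in these stretches. G and C made up 66.4% (Cebpa), 81.6% (Cebpb) and 70.8% (Cebpg) of the windows, against a median of 52.4%.

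Several facts of the whole series bear on every value. Relative to Ern1f/f control replicate 1, the depth of the libraries, read from the width of the authors' confidence intervals, lay between 0.758 and 1.24. These widths correspond to 3036 to 12206 fragments per library for Cebpa, 652 to 1573 for Cebpb, 506 to 1979 for Cebpd and 1095 to 2595 for Cebpg. Groups follow the sample titles. The genotype field of the labels instead follows the replicate number, Ern1f/f for replicate 1 and Ern1f/fLyz2-Cre for replicate 2, against the title in 4 of 8 libraries, and taken that way the effects of genotype and of replicate number cannot be told apart. Lyz2, the host of the Cre, was lower in the Cre-titled library of every pair, at 60.4% and 64.9% of Ern1f/f in replicate 1 (control, then IL-4) and at 12.5% and 13.1% in replicate 2. Ern1 read 7.43 to 14.3 FPKM. In controls, Ern1 of the Cre-titled library stood at 123.9% (replicate 1) and 133% (replicate 2) of Ern1f/f. With IL-4 it stood at 72.7% and 120.6%. FPKM over the whole gene does not check a deletion of part of its exons. Libraries with the same replicate number deviated from their groups together (r = 0.688 to 0.827 over 6 pairs of groups), and each IL-4 or genotype value is therefore also given within each replicate number. Macrophage genes were high in all 8 libraries, with Emr1, which encodes F4/80, at 357 to 917 FPKM and Csf1r, the receptor of the macrophage growth factor, at 356 to 870 FPKM, while 1 of the 10 macrophage markers, Cd163, stayed under 1 FPKM.

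Cebpa was the most abundant member in all 8 libraries. In replicate 1 it read 88.9 FPKM in Ern1f/f control, 132.7 in Ern1f/f IL-4, 90.6 in Ern1f/fLyz2-Cre control and 93.7 in Ern1f/fLyz2-Cre IL-4. In replicate 2 the same groups read 37.8, 48.9, 45.3 and 50.1 FPKM. All 4 replicate 1 libraries lay above all 4 replicate 2 libraries, and Ern1f/f IL-4 replicate 1 stood highest. Among the 10934 genes tested, the level of Cebpa ranked between the 83.5th and 94.8th percentile.

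Cebpb was second in 7 of 8 libraries. It read 21.4, 32.6, 21.4 and 27.4 FPKM in replicate 1 and 27.0, 17.2, 25.4 and 16.4 FPKM in replicate 2, in the same order of groups. The IL-4 libraries were the highest of replicate 1 and the lowest of replicate 2, and the 4 controls lay between them. Cebpd, the acute phase member, read 13.7, 6.59, 16.0 and 5.69 FPKM in replicate 1 and 26.1, 9.32, 30.0 and 9.98 FPKM in replicate 2. Its 4 controls, at 13.7 to 30.0 FPKM, did not overlap its 4 IL-4 libraries, at 5.69 to 9.98 FPKM. In Ern1f/fLyz2-Cre control replicate 2, Cebpd stood above Cebpb, and in Ern1f/f control replicate 2 their authors' intervals overlapped.

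Cebpg, the member without an activation domain, was the steadiest within a replicate number. It read 12.6, 13.1, 13.1 and 12.7 FPKM in replicate 1 and 7.81, 8.65, 8.80 and 9.47 FPKM in replicate 2, with no overlap between the numbers. Within replicate 1 its standard deviation over the 4 groups was 0.261 FPKM around a mean of 12.9. Cebpe, the granulocyte member, was barely detected. It read 0.0829, 0.238, 0.0507 and 0.244 FPKM in replicate 1 and 0.132, 0.267 and 0.0357 FPKM in the first 3 groups of replicate 2, and was listed at 0 in Ern1f/fLyz2-Cre IL-4 replicate 2. These values correspond to 1 to 11 fragments. In the library listed at 0, 3 fragments, a floor set here, would be worth 0.0974 FPKM. Summed over the 4 libraries of a treatment, Cebpe had 11 fragments in controls and 29 with IL-4. Of the 29, the 2 Ern1f/f libraries gave 9 each and Ern1f/fLyz2-Cre IL-4 replicate 1 gave 11. Cebpe entered no test.

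**Figure D1:**
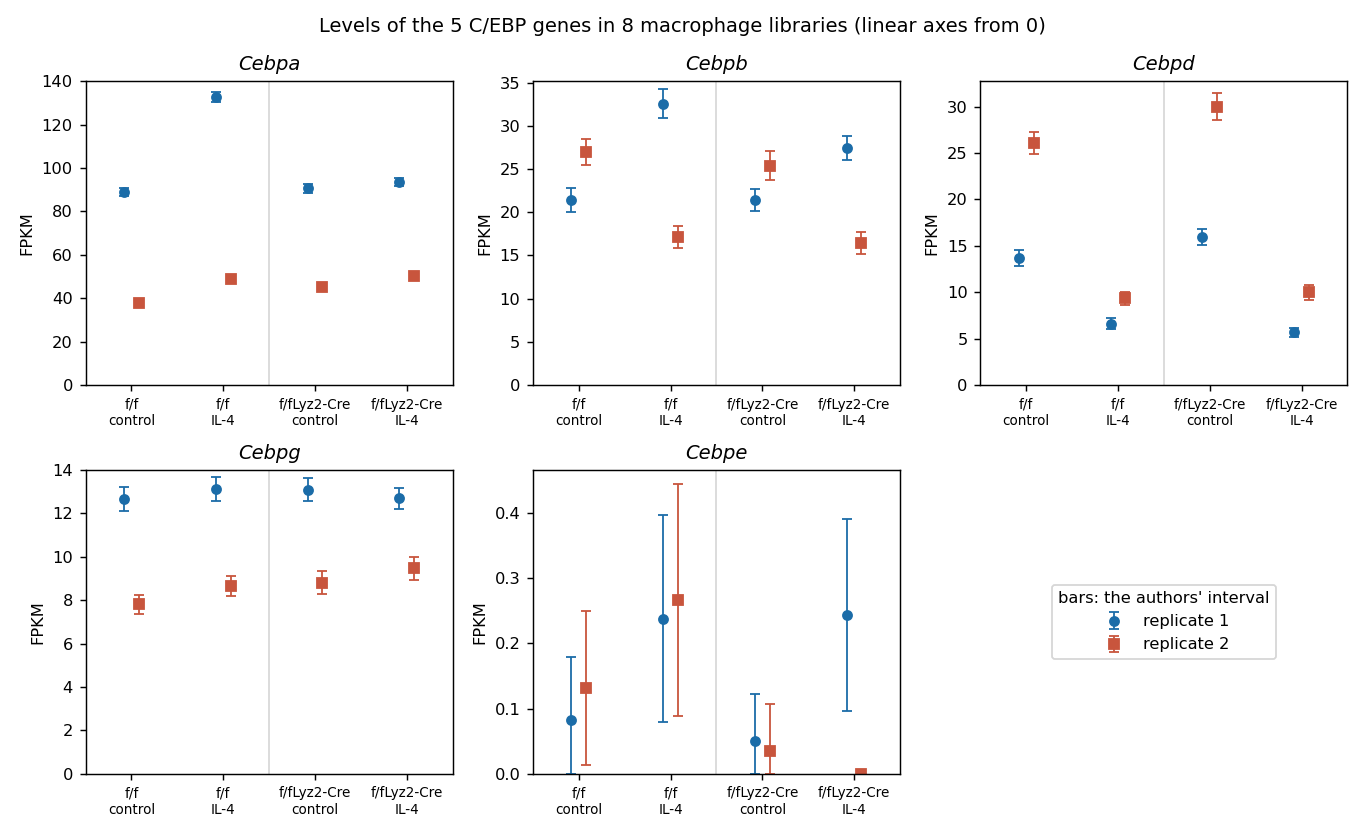
Level of each C/EBP gene (FPKM, linear axes from 0, 1 panel per gene) in the 4 title groups, circles for replicate 1, squares for replicate 2, and bars for the authors' confidence interval of each library. Cebpa and Cebpg separate by replicate number, Cebpd separates by treatment, and the squares and circles of Cebpb cross between control and IL-4.

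Added together, the 5 genes gave 137 to 185 FPKM in replicate 1 and 84.3 to 109.5 FPKM in replicate 2. Cebpa made up 64.2% to 71.6% of this sum in replicate 1. In replicate 2 its share was 38.3% and 41.4% in the controls and 58.0% and 58.3% with IL-4. The share of Cebpd was 10.03% and 11.3% in the controls of replicate 1 and 26.4% and 27.4% in those of replicate 2, against 3.56% to 11.6% in the IL-4 libraries. In both controls of replicate 2, Cebpb and Cebpd together exceeded Cebpa. The shares were 27.3% (Cebpb), 26.4% (Cebpd) and 38.3% (Cebpa) in Ern1f/f, and 23.2%, 27.4% and 41.4% in Ern1f/fLyz2-Cre.

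Among the 4 tested members, Cebpd differed most between IL-4 and control on the log2(FPKM + 1) scale. Within replicate 1, Cebpd with IL-4 stood at 48.0% of its control in Ern1f/f cells and at 35.7% in Ern1f/fLyz2-Cre cells. Within replicate 2 it stood at 35.8% and 33.3%. It was lower in 4 of 4 pairs, as were 23.5% of all genes tested, and its IL-4 and control libraries did not overlap in that direction, as for 7.23%. On that scale, which understates the change of low genes, the difference was -1.17 ± 0.44 (SE) in Ern1f/f and -1.42 ± 0.44 in Ern1f/fLyz2-Cre (n = 2 per group). In the fit of 4 group means neither passed (limma, Benjamini-Hochberg adjusted p = 0.759 and 0.478). With the replicate number as a block, both passed: Cebpd fell in Ern1f/f cells (adjusted p = 0.0151, 95% interval -1.50 to -0.85) and in Ern1f/fLyz2-Cre cells (adjusted p = 0.0077, interval -1.74 to -1.09).

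Without the block, 0 of 10934 genes (0%) were called in Ern1f/f, with 673 at an unadjusted p under 0.05, and 6 (0.0549%) in Ern1f/fLyz2-Cre. The blocked fit called 2.12% of genes in Ern1f/f, 0.86% lower, and 3.32% in Ern1f/fLyz2-Cre, 1.53% lower. These shares moved with single libraries: leaving out each in turn, the 232 genes called in Ern1f/f became 6 (without Ern1f/f control replicate 1) to 278, and the 363 in Ern1f/fLyz2-Cre became 2 (without Ern1f/fLyz2-Cre IL-4 replicate 2) to 339. Of the 4 members tested, 0 were called without the block and 1, Cebpd, with it. The blocked call in Ern1f/f ended without Ern1f/f control replicate 1 (adjusted p = 0.129) or replicate 2 (0.115), Ern1f/f IL-4 replicate 2 (0.0531) or Ern1f/fLyz2-Cre IL-4 replicate 2 (0.0524). In Ern1f/fLyz2-Cre it ended without Ern1f/fLyz2-Cre IL-4 replicate 1 (0.0858) or replicate 2 (0.0860). The difference remained between -1.36 and -0.98 in Ern1f/f and between -1.51 and -1.32 in Ern1f/fLyz2-Cre whichever library was left out of the blocked fit.

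Marker sums of several cell types were also lower with IL-4, macrophages among them. The 10 macrophage markers, Lyz2 the largest, summed in replicate 1 to 21140 FPKM in Ern1f/f control and 11480 in Ern1f/f IL-4. They summed to 13830 in Ern1f/fLyz2-Cre control and 8206 in Ern1f/fLyz2-Cre IL-4. In replicate 2 the same groups summed to 19750, 14260, 4424 and 4171 FPKM. Of the 9 tested, 4 were lower and 1 was higher in 4 of 4 pairs. The 6 monocyte markers summed to 14.1 to 44.8 FPKM in controls and 8.54 to 11.5 FPKM with IL-4, and 4 of the 5 tested were lower in 4 of 4 pairs. The other tested marker, the chemokine receptor gene Ccr2, was higher in 4 of 4 pairs, at 0.602 to 0.907 FPKM in controls and 0.971 to 3.497 FPKM with IL-4. The 9 neutrophil markers in the tables summed to 21.5 to 40.2 FPKM in controls and 6.43 to 20.3 FPKM with IL-4, mostly S100a8. Of the 9, 6 stayed under 1 FPKM in every library, with Retnlg listed at 0 throughout. Cxcr2 was higher with IL-4 in 4 of 4 pairs, at 0.0256 to 0.484 FPKM. Mpo read 0.323 FPKM in Ern1f/f control and 2.14 in Ern1f/f IL-4 of replicate 2, and at most 0.0967 elsewhere. The 9 fibroblast and stroma markers summed in replicate 1 to 170.6 FPKM in Ern1f/f control, 82.0 in Ern1f/f IL-4, 469 in Ern1f/fLyz2-Cre control and 213 in Ern1f/fLyz2-Cre IL-4. In replicate 2 the same groups summed to only 7.89, 7.71, 3.62 and 2.68 FPKM. The median difference of the 7 tested was -1.04 and -1.20 in replicate 1 (Ern1f/f, then Ern1f/fLyz2-Cre), but -0.05 and -0.08 in replicate 2. Of these 7, 3 were lower with IL-4 in 4 of 4 pairs. In bulk RNA, fewer cells of a type and less RNA per cell cannot be told apart. The part of these cells in the Cebpd result was not tested.

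Cebpa did not pass for IL-4. In Ern1f/f cells it stood with IL-4 at 149% of control in replicate 1 and 129% in replicate 2, a log2 difference of 0.47 ± 0.67 (SE, adjusted p = 0.999; with the block, interval 0.10 to 0.83 and adjusted p = 0.191). In Ern1f/fLyz2-Cre cells it stood at 103% and 111%, a difference of 0.10 (blocked interval -0.27 to 0.46). Its values were higher with IL-4 in 4 of 4 pairs, by little in the Cre-titled cells, and 1861 of all 10934 genes tested were also higher in 4 of 4. Cebpg differed by 0.09 in Ern1f/f and 0.03 in Ern1f/fLyz2-Cre, with blocked intervals of -0.16 to 0.34 and -0.23 to 0.28, so IL-4 differences above 0.34 on this scale lie outside both intervals.

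Cebpb showed opposite IL-4 differences in the 2 replicate numbers. In replicate 1, Cebpb with IL-4 stood at 152% of control in Ern1f/f and 128% in Ern1f/fLyz2-Cre cells. In replicate 2 it stood at 63.5% and 64.6%. The log2 differences were 0.58 and 0.34 in replicate 1 and -0.63 and -0.60 in replicate 2, a switch of sign shared by both genotypes that 13.1% of all genes tested also showed. Their means, -0.02 ± 0.36 in Ern1f/f and -0.13 ± 0.36 in Ern1f/fLyz2-Cre (SE), therefore describe neither replicate number, and the blocked intervals were wide (-0.78 to 0.73 and -0.88 to 0.63).

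Whether the IL-4 response differed between the numbers was tested after these values were seen, in a model with treatment, genotype, replicate number and the product of treatment and number. For Cebpb the response in replicate 2 minus that in replicate 1 was -1.08 ± 0.14 (SE) and passed (adjusted p = 0.0244), in a comparison that called 0.787% of genes, with 0.402% of all genes lower. With the 4 groups as terms in place of treatment and genotype, this difference did not pass (limma, adjusted p = 0.0741, with 0.137% of genes called and 0.0823% lower). Both models hold the replicate number. It did not pass without the filter on low values either (0.0872), nor without any 1 of the 8 libraries (0.0747 to 0.143). For Cebpa the same difference was -0.06 (adjusted p = 0.933), for Cebpd -0.30 (0.413) and for Cebpg 0.11 (0.714).

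**Figure D2:**
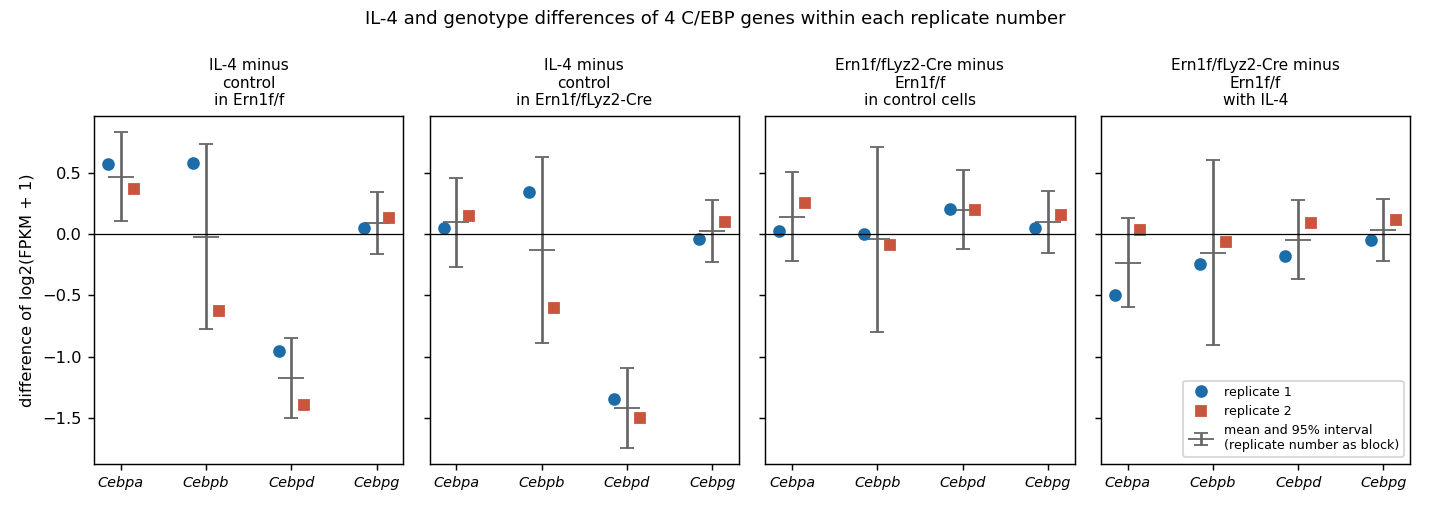
Differences of log2(FPKM + 1) for the 4 tested C/EBP genes in 4 comparisons (panels), circles for replicate 1, squares for replicate 2, horizontal ticks for their mean and bars for the 95% interval with the replicate number as a block. Cebpd lies below 0 in both IL-4 panels, the 2 points of Cebpb lie on opposite sides of 0 there, and every interval in the genotype panels crosses 0.

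The comparison of genotypes asked whether C/EBP levels differed when Cre was present. None of the 4 tested members was called, in control cells or with IL-4, with or without the block (adjusted p = 1 in each fit without it). In control cells the log2 difference, Ern1f/fLyz2-Cre minus Ern1f/f, was 0.14 for Cebpa (blocked interval -0.22 to 0.50), -0.04 for Cebpb (-0.80 to 0.71), 0.20 for Cebpd (-0.13 to 0.52) and 0.10 for Cebpg (-0.15 to 0.35). Cebpd was alike in the 2 numbers, at 0.20 and 0.19, so that Cre-titled controls stood at 116% and 115% of Ern1f/f controls. Cebpa differed by 0.03 in replicate 1 and 0.25 in replicate 2.

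With IL-4 the genotype difference was -0.23 for Cebpa (-0.60 to 0.13), -0.15 for Cebpb (-0.91 to 0.60), -0.05 for Cebpd (-0.37 to 0.28) and 0.04 for Cebpg (-0.22 to 0.29). The value of Cebpa came from replicate 1, where the Cre-titled library stood at 70.6% of the Ern1f/f library, against 102% in replicate 2. Over all genes 0% were called in control cells (27 at an unadjusted p under 0.05, and 137 with the block) and 0% with IL-4 (42, and 189 with the block). The blocked fit called 1 gene (0.00915%) with IL-4. Under the genotype field of the labels, the genotype difference is the difference between replicate numbers described further on, and Cebpa then read -1.10 in control cells. Calls change with it: Cebpa, Cebpd and Cebpg were called in control cells (adjusted p = 0.00188, 0.00114 and 0.00223) and all 4 tested members with IL-4 (0.00133 to 0.00869).

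The interaction, which subtracts the IL-4 response of Ern1f/f cells from that in Ern1f/fLyz2-Cre cells, was called for no member and for 0% of genes (19 at an unadjusted p under 0.05, 103 with the block). It was -0.37 for Cebpa (blocked interval -0.89 to 0.14), -0.11 for Cebpb (-1.18 to 0.96), -0.24 for Cebpd (-0.70 to 0.21) and -0.06 for Cebpg (-0.42 to 0.29). Under the genotype field the interaction was called for Cebpb (-1.08, adjusted p = 0.0229), the value that titles give to the IL-4 response between replicate numbers. For Cebpd, whose level was lower with IL-4 in both genotypes, the 2 numbers gave -0.38 and -0.10. The IL-4, genotype and interaction comparisons share libraries and are not separate evidence.

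Differences of the family also lay between the replicate numbers, and 3 of the 4 tested members passed there. Fitted with the 4 groups as a term, Cebpa was lower in replicate 2 by a log2 difference of -1.13 ± 0.11 (SE, adjusted p = 0.00102), Cebpg by -0.52 ± 0.07 (adjusted p = 0.00382), and Cebpd was higher by 0.73 ± 0.10 (adjusted p = 0.00294). Cebpb did not pass (-0.26 ± 0.22, adjusted p = 0.401). These calls stand against 33.4% of all genes called in this comparison, 23.3% lower and 10.1% higher. All 3 calls held under each of 10 other settings and without each of the 8 libraries.

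In every group Cebpa of replicate 2 stood at 36.9% to 53.5% of replicate 1, with means of 101 ± 20.9 FPKM in replicate 1 and 45.5 ± 5.53 FPKM in replicate 2 (SD, n = 4 groups). Cebpg stood at 61.7% to 74.7%. Neither overlapped between the numbers, and 22.4% of all genes tested were likewise lower in replicate 2 without overlap. Cebpd of replicate 2 stood at 141% to 190% of replicate 1, its numbers overlapping only across treatments. Cebpb stood at 126% and 119% in the controls and at 52.7% and 59.8% with IL-4. The median over all genes was -0.11, and -0.01 after TMM scaling (trimmed mean of M values, a scaling between libraries). That scaling moved the split of calls from 1104 higher and 2553 lower to 1703 higher and 1720 lower.

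The sums of some other cell markers moved with the replicate number too. The 9 fibroblast and stroma markers summed to 82.0 to 469 FPKM in replicate 1 and 2.68 to 7.89 FPKM in replicate 2, and all 7 that were tested were lower in replicate 2. Col1a1, the main chain of type I collagen, read 31.1 to 203 FPKM in replicate 1 and 0.444 to 2.60 FPKM in replicate 2, and no marker of the list was at 0 in all 8 libraries. Thy1, an untested marker of that list, went the other way in most groups, at 0.183 to 0.235 and 0.143 to 1.15 FPKM. Neutrophil markers summed to 6.43 to 26.5 and 20.0 to 40.2 FPKM, ranges that overlap. Their Cxcr2 was lower in replicate 2, at 0.1155 to 0.484 and 0.0256 to 0.265 FPKM. B cell markers, mostly Cd79b, summed to 0.791 to 2.37 and 5.30 to 16.8 FPKM. Of these 5 markers, 4 stayed under 1 FPKM in every library. Among them Cd79a was lower in replicate 2, at 0.267 to 0.813 and 0.122 to 0.163 FPKM. All 6 adipocyte, 7 dendritic and 5 erythroid markers stayed under 1 FPKM in every library, as did the 5 T and NK cell markers in the tables, and none of the 6 mast cell and basophil markers could be tested. The part of these cells in the differences of Cebpa, Cebpd and Cebpg was not tested.

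**Figure D3:**
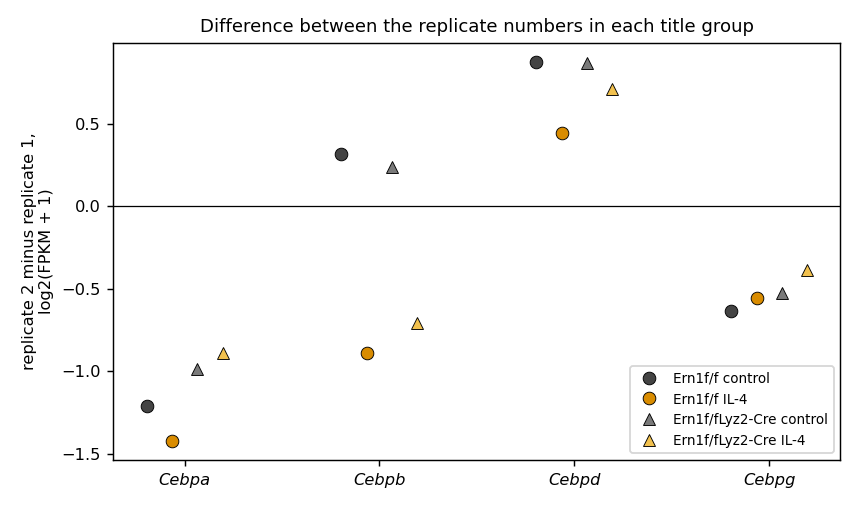
Replicate 2 minus replicate 1 on the log2(FPKM + 1) scale for 4 C/EBP genes, 1 point per title group (circles Ern1f/f, triangles Ern1f/fLyz2-Cre, grey control, yellow IL-4). Cebpa and Cebpg lie below 0 and Cebpd above 0 in all 4 groups, and Cebpb lies above 0 in the controls and below 0 with IL-4.

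The members were compared with one another and with all other genes over the 8 libraries, as a description without a test, since the libraries share replicate numbers and treatments. Cebpa and Cebpg, the neighbours on chromosome 7, had a Pearson r of 0.965 (Spearman rho 0.952), and 0.619 after the mean of each replicate number was subtracted. Cebpa and Cebpd ran opposite (r = -0.64, and -0.62 after subtraction). Cebpb followed none of the others closely (r of -0.0067 to 0.42).

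The genes most like each member were sought among 3225 genes with a standard deviation of at least 0.3 on the log2 scale. For Cebpd they included Fam43a (r = 0.994), which ranked the 8 libraries in the same order as Cebpd (rho = 1), and Hexim1, an inhibitor of the elongation factor P-TEFb (0.987). For Cebpa they included Abca2, a lipid transporter (0.991), and Fzd7, a WNT receptor (0.985). Fzd7 read 10.4 to 15.7 FPKM in replicate 1 and 4.62 to 7.05 FPKM in replicate 2, with no overlap. For Cebpg they were Eid1 (0.990), Cadm1 (0.983) and the histone gene Hist1h2af (0.983), whose many close copies make its value uncertain.

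No gene followed Cebpb as closely. The nearest was Jund, an AP-1 subunit (r = 0.891), then Pet117 (0.835) and Sssca1 (0.824). Jund read 35.9, 74.7, 36.0 and 46.5 FPKM in replicate 1 and 41.5, 34.0, 47.5 and 31.5 FPKM in replicate 2, so its IL-4 libraries too were the highest of replicate 1 and the lowest of replicate 2. With the mean of each number subtracted, the closest to Cebpb were Psrc1 (0.972), the ETS factor gene Etv1 (0.957) and Amd2 (0.945). Fam43a (0.997), the spermine oxidase gene Smox (0.996) and Nfic (0.994) were then closest to Cebpd. Apbb2, Clcn5 and Rel were closest to Cebpa (0.944 to 0.953), and Tgtp2, Pank3 and Dcp2 to Cebpg (0.962 to 0.977).

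**Figure D4:**
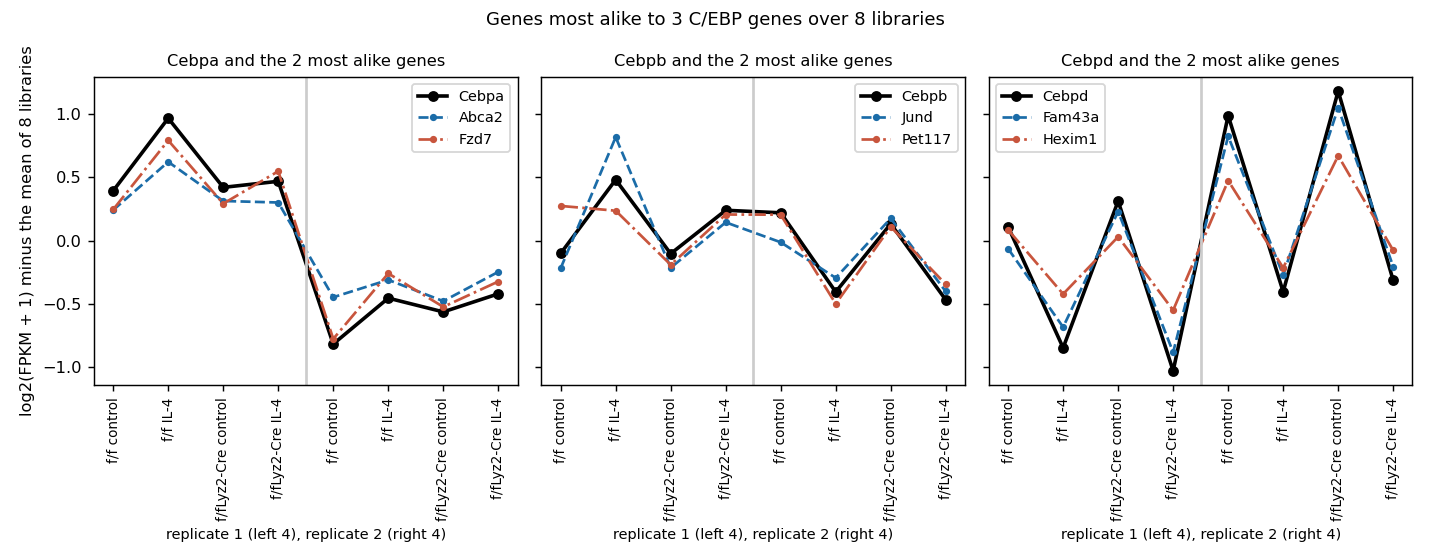
Cebpa, Cebpb and Cebpd (black) with the 2 genes of highest Pearson r over the 8 libraries (coloured lines), as log2(FPKM + 1) minus each gene's mean. The left 4 points of a panel are replicate 1 and the right 4 replicate 2; the Cebpd panel shows the alternation of control and IL-4, and the Cebpa panel the step between the numbers.

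Genes around the family were described from lists by counts and medians of the IL-4 difference, averaged over genotypes, where the median over all 10934 genes was -0.03. Of the 18 calls on list genes with the block, marker lists included, the 2 of Arg1 held without each of the 8 libraries, and the call of Vegfa ended without any 1 of them. Of 23 partners and regulators, 19 were tested, with a median of -0.02, and 0 were called in either genotype with or without the block. The largest difference in this list was that of Klf4, a zinc finger factor of alternative activation, at 1.42 in Ern1f/f and 1.24 in Ern1f/fLyz2-Cre (blocked adjusted p = 0.069 and 0.0757). Rps6ka3, a kinase known to phosphorylate C/EBPβ, differed by 0.72 and 0.31, and Irf8, a partner in monocyte development, by -0.39 and -0.43. Trib3, a pseudokinase induced by ATF4, differed by 0.48 in replicate 1 and -1.15 in replicate 2, averaged over genotypes, the same switch of sign as Cebpb.

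Of 32 bZIP relatives, 30 were tested, with a median of -0.09. With the block 2 rose in Ern1f/f and 1 in Ern1f/fLyz2-Cre, and 0 fell; over all genes 1.26% and 1.79% rose. Nfil3, a repressor related to the PAR bZIP factors, rose in both: it read 3.72, 34.3, 4.57 and 34.2 FPKM in replicate 1 and 6.73, 28.5, 6.69 and 35.0 FPKM in replicate 2 (log2 2.42 and 2.44, blocked adjusted p = 0.0101 and 0.00723). Its IL-4 libraries all stood above all its controls, the reverse of Cebpd. Fosl2, an AP-1 subunit, rose in Ern1f/f (0.97, blocked adjusted p = 0.0447) and differed by 0.86 in Ern1f/fLyz2-Cre (0.0517). Between the replicate numbers 4 relatives were higher and 9 lower in replicate 2, where 10.1% of all genes were higher and 23.3% lower.

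Genes known as targets of the family did not move one way with IL-4. Of 12 myeloid receptor and macrophage genes, all tested, 7 were lower and 2 higher in 4 of 4 pairs (median -0.52, -0.75 in replicate 1 and -0.30 in replicate 2). Over all genes, 2566 were lower and 1861 higher in 4 of 4 pairs. Only Csf2rb, the shared chain of the GM-CSF receptor, passed among the 12, and it rose in both genotypes with the block (1.03 and 0.91, adjusted p = 0.0151 and 0.0181). Cd14, the LPS co-receptor, differed by -1.65 and -1.69 (blocked adjusted p = 0.0736 and 0.0573).

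Of 24 inflammatory and acute phase genes known as targets of C/EBPβ and C/EBPδ, 20 were tested, with a median of -0.43. That median rests on 1 pair: it was -1.36 in the Ern1f/fLyz2-Cre pair of replicate 1, -0.17 in both Ern1f/f pairs and -0.06 in the other Ern1f/fLyz2-Cre pair, and -0.01 over the 3 pairs without the first. Ern1f/fLyz2-Cre control replicate 1 held the highest value of 8 of the 20 genes, among them Il1b, the interleukin-1β gene, at 58.7 FPKM against 2.09 to 7.30 elsewhere, and Ptgs2, which encodes cyclooxygenase-2, at 9.56 against 1.16 to 2.32. It was also the highest library for all 7 tested fibroblast markers, and 2762 of all 10934 genes were highest in it. With the block 1 fell in Ern1f/f, the haptoglobin gene Hp (-1.46, adjusted p = 0.0221), and 2 fell in Ern1f/fLyz2-Cre. These were the serum amyloid gene Saa3 (-1.42, adjusted p = 0.0394) and Socs3, a feedback inhibitor of cytokine signalling (-1.55, adjusted p = 0.0101). Without Ern1f/fLyz2-Cre control replicate 1 neither Saa3 (-1.68, adjusted p = 0.0835) nor Socs3 (-1.48, 0.0604) passed. Socs3 read 2.47, 1.61, 6.90 and 1.81 FPKM in replicate 1 and 12.8, 6.22, 20.8 and 6.17 FPKM in replicate 2, lower with IL-4 in 4 of 4 pairs and higher in replicate 2 in each group, as was Cebpd. In this list 10 genes were higher and 2 lower in replicate 2, where 10.1% of all genes were higher and 23.3% lower.

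Of 10 genes on the CREB and C/EBPβ route of alternative activation, 9 were tested. Arg1, the arginase gene that C/EBPβ acts on, read 0.0444, 64.9, 0.0611 and 62.3 FPKM in replicate 1 and 0.685, 72.3, 1.15 and 135.5 FPKM in replicate 2. It was higher with IL-4 in both replicate numbers, in one of which Cebpb was higher and in the other lower. With the block Arg1, Mrc1 and Pparg rose in both genotypes, while Vegfa (-1.25, adjusted p = 0.0441) and Il4ra, the IL-4 receptor (-0.71, adjusted p = 0.0396), fell in Ern1f/fLyz2-Cre. The list's median was -0.37, and 5 of the 9 were lower and 3 higher in 4 of 4 pairs.

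Of 12 adipocyte and lipid genes known as C/EBPα targets, 6 were tested (median 0.41), and Pparg, the regulator of fat cell genes, was the one that rose with the block (1.04 in Ern1f/f and 1.31 in Ern1f/fLyz2-Cre, adjusted p = 0.0319 and 0.0143). Between the replicate numbers 0 of these 6 genes were higher and 1, Pparg, was lower in replicate 2 (-1.07, limma adjusted p = 0.00143). The list's median there was -0.19, and 10.1% of all genes were higher and 23.3% lower. Of 16 granule genes known as C/EBPε targets, 15 were in the tables, 6 were tested and 8 stayed under 1 FPKM everywhere. S100a8 fell with the block in Ern1f/f (-1.45, adjusted p = 0.0354) and differed by -0.60 in Ern1f/fLyz2-Cre. Chi3l3, whose close relatives share sequence, differed by 8.44 in replicate 1 and 2.35 in replicate 2, averaged over genotypes, and passed in neither genotype (blocked adjusted p = 0.206 in Ern1f/f and 0.125 in Ern1f/fLyz2-Cre).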

How the data were processed

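RNA levels were measured in 8 libraries (4 title groups of 2). The deposited values are gene-level FPKM made by the authors, each with a confidence interval; per the submitters' processing notes TopHat 1.4.1, Cufflinks 1.3.0 and mm10 were used. Rows of 1 symbol were summed (243 symbols). Of 23354 symbols, 10934 reached 1 FPKM in 2 or more libraries, and their log2(FPKM + 1) values were fitted with limma 3.58.1 under R 4.3.3 (two-sided, eBayes with trend). A call means an adjusted p under 0.05 by Benjamini-Hochberg over all of them. The script was tested on simulated data. Fragments were read from the interval, taken as 2 square roots of the fragment number on each side, and did not enter the fits; such numbers cover counting error only.

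The stated fit has no block. The replicate number was the block in an alternative, because libraries of 1 number deviated together in all 6 pairs of groups (r = 0.688 to 0.827) and the first principal component (59.0% of variance) separated the numbers. The labels do not say what the number marks.

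Members and gene lists were chosen with earlier results of these data known. Named genes are the members, the 3 genes most correlated with each (also with each number's mean subtracted), up to 4 genes per list with the largest IL-4 difference, and any list gene called for IL-4. Some genes and 1 sequence chosen by these rules are not reported here. Other settings changed the pseudocount (0.1 and 5), filter, scaling, variance model, symbol rows, status, libraries fitted, genotype label and each library. Plots used matplotlib 3.10.9 and Python 3.11.15.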

Additional observations from a re-analysis of the deposited data

Results flagged for a closer look

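The response of Cebpb to IL-4 differed in sign between the replicate numbers, which no other tested member showed in both genotypes. The response in replicate 2 minus that in replicate 1 was -1.08 (log2, adjusted p = 0.0244 by limma), a test chosen after the values were seen. The call was lost with the 4 groups as terms in place of treatment and genotype (adjusted p = 0.0741), where both fits hold the replicate number. It was also lost without any 1 of the 8 libraries, where the difference ran from -1.17 to -0.98. In replicate 1 both genotypes were higher with IL-4 (0.58 and 0.34), and in replicate 2 both were lower (-0.63 and -0.60). Fibroblast marker sums of 82.0 to 469 FPKM in replicate 1 and 2.68 to 7.89 FPKM in replicate 2 moved with the same number; their part in this difference was not tested.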

How the results depend on the processing

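Direction and call of Cebpa, Cebpd and Cebpg between the replicate numbers held in every setting run. The cause of the changes below was not tested.

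With the replicate number as a block, Cebpd gained its IL-4 calls. Cebpb lost its call on the IL-4 response between the replicate numbers with the 4 groups as terms in place of treatment and genotype. Both fits of that response hold the replicate number. No other call on a member changed. With the block, Cebpd read -1.17 in Ern1f/f and -1.42 in Ern1f/fLyz2-Cre. It read -1.26 and -1.52 with a pseudocount of 0.1, and -0.90 and -1.10 with 5. With TMM it read -1.14 and -1.42, and with quantile normalization -1.14 and -1.40. These blocked fits called Cebpd in all 5. Without the block, none of these settings called Cebpd in either genotype. With the 4 groups as terms, the IL-4 response of Cebpb in replicate 2 minus replicate 1 read -1.08, -1.12, -0.92, -1.07 and -1.07 under the same 5 settings, uncalled in each. Its call was also lost without the filter on low values, at -1.08. The 86 genes called in that comparison became 8 without the filter, 38 with a pseudocount of 0.1 and 15 with the 4 groups as terms. They became 159 with 1 FPKM in all 8 libraries and 123 with a pseudocount of 5. For IL-4, the 0 genes called in Ern1f/f and 6 in Ern1f/fLyz2-Cre became 232 and 363 with the block, 12 and 26 with TMM, 11 and 13 with upper quartile scaling, and 2264 and 1273 with the label field.

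The IL-4 value of Cebpb in Ern1f/f turned from -0.02 to 0.02543 with upper quartile scaling, 0.01345 with TMM and 0.02432 with quantile normalization, the last 2 also with the block. Cebpg in the genotype comparison with IL-4 turned to -0.0024 with upper quartile scaling.

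With genotype from the label field, IL-4 values were 0.46 and -0.61 for Cebpb and -1.15 and -1.44 for Cebpd, all called. Genotype values in control cells were -1.10 (Cebpa), 0.28 (Cebpb), 0.87 (Cebpd) and -0.58 (Cebpg), called except for Cebpb. With IL-4 they were -1.16, -0.80, 0.58 and -0.47, all called, and the interaction was -1.08 for Cebpb, called, and 0.11 for Cebpg, not called.

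Leaving out 1 library, with or without the block, gave the ranges below. Without the block, a library missing from a compared group leaves the replicate numbers uneven, so their difference enters the value. For IL-4 in Ern1f/f, Cebpa ran from -0.24 to 1.18 without the block and from 0.27 to 0.66 with it. IL-4 in Ern1f/f ran from -0.24 to 1.18 (Cebpa), -0.46 to 0.42 (Cebpb), -1.61 to -0.73 (Cebpd) and -0.22 to 0.41 (Cebpg). IL-4 in Ern1f/fLyz2-Cre ran from -0.40 to 0.59, -0.48 to 0.23, -1.85 to -0.98 and -0.23 to 0.29. Genotype in control cells ran from -0.47 to 0.75, -0.43 to 0.34, -0.24 to 0.64 and -0.22 to 0.42, and with IL-4 from -0.94 to 0.48, -0.59 to 0.29, -0.40 to 0.31 and -0.24 to 0.31. The interaction ran from -1.08 to 0.34, -0.55 to 0.34, -0.68 to 0.19 and -0.38 to 0.25. The IL-4 response between the numbers ran from -0.36 to 0.24 for Cebpa and from -1.17 to -0.98 for Cebpb.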
